A study of Mus musculus with 12 samples.

Results

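The comparison asked which differences between cartilage and entire long bone were still present in embryos that do not form endochondral bone. Chondroepiphyseal cartilage from S1Pcko embryos, with 2 arrays, was set against entire long bones from S1Pcko embryos, with 3 arrays. These 5 arrays, taken by their labels, are part of 12 in the series, and gene expression was read on each with the Illumina MouseWG-6 v1.1 BeadChip. All embryos were C57BL/6 at E16.5. S1Pcko embryos carried S1P f/f;Col2-Cre, so that the gene of site-1 protease (S1P, Mbtps1) was deleted in cells that express the Col2 promoter, which drives Cre mainly in chondrocytes and their precursors. WT littermates, which served as a second pair of tissues with 2 cartilage and 3 long bone arrays, were either S1P f/f or S1P f/+ without Cre, or S1P f/+;Col2-Cre. The cartilage was the tip of the long bone, broken off near the chondroosseous junction. The entire long bones had been kept intact and therefore also hold the epiphyseal cartilage, so that each difference sets a tip against a whole that includes it. By the study's description, S1Pcko limbs lack endochondral bone, have a cartilaginous shaft and show enhanced cortical bone.

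Long bones form on a cartilage model. Chondrocytes proliferate, become hypertrophic and mineralize their matrix, after which osteoclasts and blood vessels invade and osteoblasts lay down bone on the remnants, while the perichondrium around the shaft forms a bone collar directly. S1P is a Golgi protease that cuts membrane-bound transcription factors, among them the SREBPs that switch on cholesterol synthesis and ATF6 of the ER stress response. Osteoblast genes in a limb can therefore come from either route of bone formation, and a whole-tissue array does not separate these sources.

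Between 20555 and 21978 of the 46643 probes were detected per array over the whole series. Mbtps1, the deleted gene, had normalized log2 intensities of 8.62 and 8.87 in S1Pcko cartilage, against 8.48, 8.40 and 8.66 in S1Pcko long bone (replicates 1, 2 and 3). In WT embryos it had 8.89 and 9.04 in cartilage and 8.33, 8.66 and 9.10 in long bone. The sources used here do not name the deleted exon, so this probe, the brighter of 2 tested, does not check the genotype. Array titles mark both cartilage groups' replicate 2 and both long bone groups' replicate 2 as second amplifications, and the study's count of embryos leaves 1 embryo per genotype for the cartilage arrays. Replicates may therefore be technical, and n counts arrays. The p values leave out the spread between embryos for cartilage and may hold only part of it for long bone.

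One S1Pcko long bone array stood apart. Replicate 1 differed by 2-fold or more from replicate 3 at 580 probes and from replicate 2 at 563, whereas replicates 2 and 3 differed at 56 and the S1Pcko cartilage arrays at 121. From the WT long bone arrays it differed at 516, 687 and 437 probes (replicates 1, 2 and 3), so that WT replicates 1 and 3 were closer to it by this count than its own group. The 25 skeletal muscle genes averaged 10.82 and 10.79 in S1Pcko cartilage, against 11.48 in long bone replicate 1 and 9.82 and 9.87 in replicates 2 and 3. The 14 macrophage and granulocyte genes averaged 7.56 and 7.46 in cartilage, against 8.68, 7.64 and 7.57 in long bone, and the 7 epidermis genes 6.27 and 6.23 in cartilage, against 7.68, 6.49 and 6.49. Krt14, a keratin of basal epidermis, had 10.16 in replicate 1 and was between 4.57 and 5.04 on the other 4 S1Pcko arrays. Xist, the RNA of the inactive X chromosome, had 12.31 in replicate 1 and between 5.99 and 6.23 on the other 4, while Eif2s3y, a Y-linked gene, had 4.28 there and between 7.26 and 8.39 on the others. The labels give no sex, and replicate 1 did not share the X- and Y-linked pattern of replicates 2 and 3. In WT long bone replicate 3 was the one apart, with Xist at 6.62 and replicates 1 and 2 at 12.13 and 11.44. The counts of called genes are given with and without the S1Pcko array. The fit without it keeps replicates 2 and 3, which may be amplifications of 1 extract and so understate the spread.

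**Figure D1:**
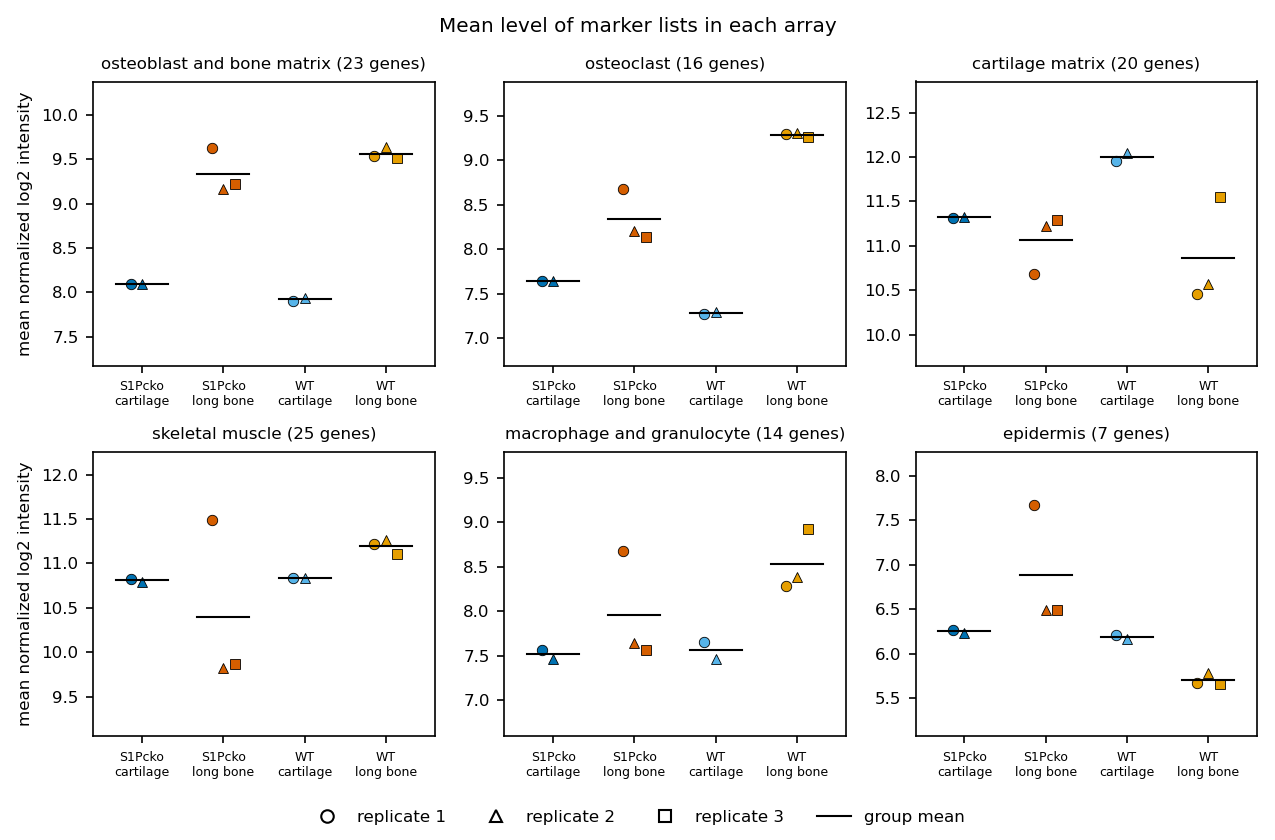
Mean normalized log2 intensity (y axis) of the tested members of 6 marker lists in each cartilage and long bone array of S1Pcko and WT embryos (x axis), with symbols for the replicates and lines for the group means. In S1Pcko long bone replicate 1 (circle) lies above replicates 2 and 3 for muscle, at 11.48 against 9.82 and 9.87, and for macrophage and epidermis genes, and below them for cartilage matrix genes, at 10.68 against 11.23 and 11.30.

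Of 11970 genes tested by their brightest probe, 135 differed between the S1Pcko tissues at an adjusted p under 0.05 and 2-fold or more (1.13%). Counted by probe, 236 of 22273 passed (1.06%), of which 53 have no symbol and are not described. Of the 135 genes, 23 were higher in cartilage (0.192% of the genes tested) and 112 were higher in long bone (0.936%). In WT embryos the same test called 573 genes, 235 higher in cartilage (1.96%) and 338 higher in long bone (2.82%), or 4.79% together. All 135 genes had array values that did not overlap between the S1Pcko tissues, as had 22.3% of all genes with both cartilage arrays above and 15.9% with both below. The median difference over all genes, cartilage minus long bone on the log2 scale, was 0.04 in S1Pcko and 0.02 in WT. Without S1Pcko long bone replicate 1 the counts were 72 higher in cartilage, of which 14 were among the 23, and 99 higher in long bone, of which 89 were among the 112. Without S1Pcko cartilage replicate 1 they were 4 and 48, and without S1Pcko cartilage replicate 2 they were 1 and 29. The count higher in cartilage was 13 without either WT cartilage array and 15 without S1Pcko long bone replicate 3. With amplifications averaged, 1 gene was higher in cartilage. Higher in long bone were 2 genes with S1Pcko long bone replicate 2 averaged with replicate 3, and 14 with replicate 2 averaged with replicate 1. The labels do not name the join, but replicate 2 shared the X- and Y-linked pattern of replicate 3 and not that of replicate 1.

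Most genes called in S1Pcko were higher in long bone, by 112 against 23, a split of 99 against 72 without S1Pcko long bone replicate 1. That replicate was the highest S1Pcko long bone array in 84 of the 112 genes, as it was in 33.6% of all genes. In both genotypes, 70 genes were called higher in long bone and 8 higher in cartilage, which is 57.8% of the genes called in S1Pcko and 13.6% of those called in WT. These 78 were 72 without replicate 1, 30 without S1Pcko cartilage replicate 1 and 19 without S1Pcko cartilage replicate 2. Among these 70 genes, 52 had a smaller difference in S1Pcko than in WT, with medians of -1.51 and -2.04 on the log2 scale. Of the 338 genes called higher in long bone in WT, 323 were also lower in S1Pcko cartilage than in S1Pcko long bone, with a median of -0.72 in S1Pcko and -1.34 in WT. Of the 235 genes called higher in cartilage in WT, 199 had the same sign in S1Pcko, with a median of 0.37 in S1Pcko and 1.25 in WT, and 8 were called. The choice by the WT test favours the larger WT values in these last medians. The S1Pcko and the WT comparison share no arrays, but both come from the same fit and share its estimate of each gene's spread. Without either WT cartilage array the S1Pcko count higher in cartilage fell from 23 to 13. A gene with a low estimated spread is favoured in both tests, so the calls in both genotypes are not independent. Because tissues were harvested whole, fewer cells of a type and less RNA per cell cannot be told apart in any of these values.

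**Figure D2:**
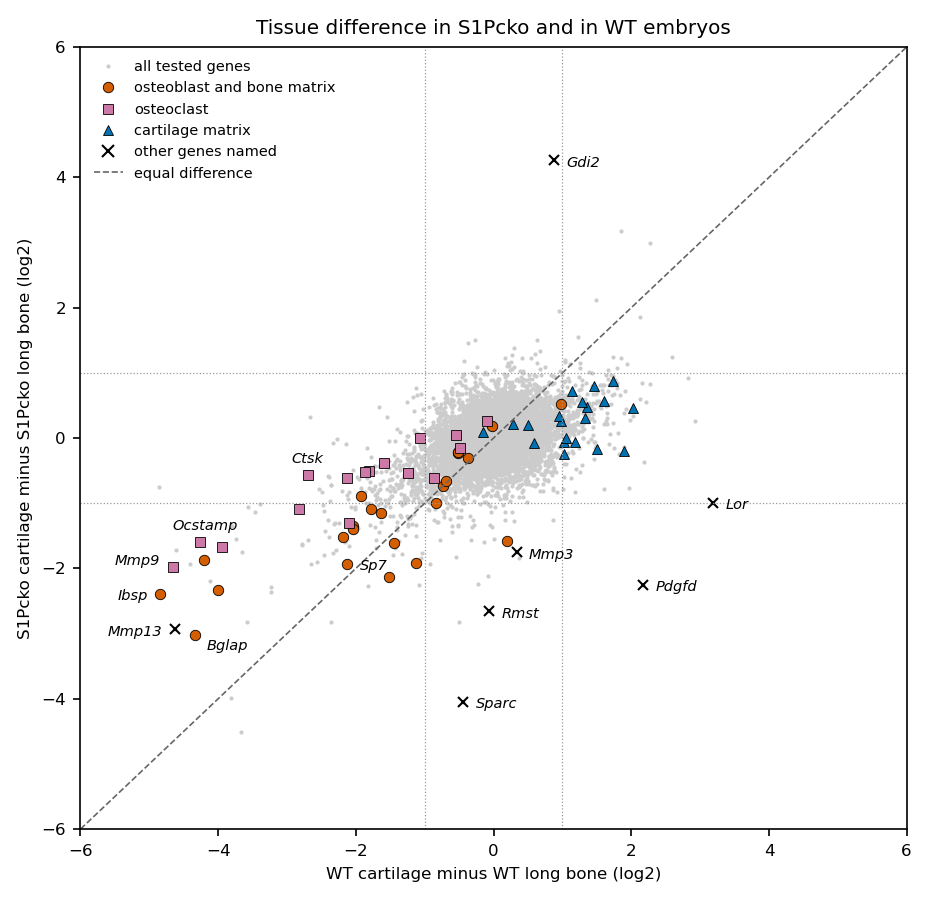
Difference between cartilage and long bone (log2) of each of 11970 genes in S1Pcko embryos (y axis) and in WT embryos (x axis), with members of 3 lists coloured, the dashed line at equal differences and dotted lines at 2-fold. Osteoblast genes such as Ibsp (-2.39 in S1Pcko, -4.84 in WT) and Sp7 (-1.93 and -2.12) lie low in both genotypes, whereas most cartilage matrix genes lie right of 0 in WT and closer to 0 in S1Pcko.

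Osteoblast and bone matrix genes were the group with the most calls. Of 30 listed genes 23 passed the detection filter, and 12 of them were higher in S1Pcko long bone, none was higher in cartilage and 11 did not pass the test. Their median difference was -1.34, against 0.04 over all genes. In WT embryos 14 of the 23 were called higher in long bone with a median of -1.52, and 11 genes were called in both genotypes. On average the 23 genes had 8.09 and 8.09 in S1Pcko cartilage, against 9.63, 9.16 and 9.22 in S1Pcko long bone, and 7.91 and 7.94 in WT cartilage, against 9.54, 9.64 and 9.51 in WT long bone. Without S1Pcko long bone replicate 1 the count was 11 of 23 and the median -1.06, and without either S1Pcko cartilage array the count was 6. With amplifications averaged 2 members or none passed, at a median of -1.31 under both joins.

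Ibsp, which encodes bone sialoprotein of the mineralizing matrix, had 11.44 and 11.23 in S1Pcko cartilage, against 14.15, 13.50 and 13.52 in S1Pcko long bone. All long bone arrays lay far above both cartilage arrays, and the difference was -2.39 (standard error 0.21, adjusted p = 0.000213), which is 5.23-fold. In WT it was -4.84, with 9.30 and 9.21 in cartilage and 14.08, 14.30 and 13.91 in long bone. Most of the gap between the genotypes thus lay in cartilage, where the S1Pcko arrays were higher. The tissue difference was smaller in S1Pcko than in WT by 2.46 (standard error 0.29, adjusted p = 0.00741), a call that was lost in 3 of 10 fits with 1 array left out (S1Pcko cartilage replicate 1, or WT cartilage replicate 1 or 2), where the adjusted p ranged up to 0.0565. Bglap, which encodes osteocalcin, had 7.74 and 7.48 in S1Pcko cartilage, against 12.20, 9.87 and 9.84 in S1Pcko long bone, a difference of -3.03 (standard error 0.56, adjusted p = 0.0245). Its highest value was that of replicate 1, without which the difference was -2.24. The gene lies beside near-identical copies, Bglap2 and Bglap3, and the probe's share of each is uncertain.

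Sp7, the transcription factor osterix that commits cells to the osteoblast lineage, had nearly the same values in both genotypes. It had 10.32 and 10.14 in S1Pcko cartilage, against 12.46, 12.11 and 11.92 in S1Pcko long bone, and 10.36 and 10.16 in WT cartilage, against 12.41, 12.41 and 12.34 in WT long bone. The tissue differences were -1.93 in S1Pcko (standard error 0.17, adjusted p = 0.000228) and -2.12 in WT, and the difference between them was 0.19 (standard error 0.24, adjusted p = 0.748), with its other probe at -1.76 (adjusted p = 0.00107). Phex, an endopeptidase that regulates phosphate and mineralization, had 8.64 and 8.71 in S1Pcko cartilage, against 11.54, 10.69 and 10.81 in S1Pcko long bone, a difference of -2.34 (adjusted p = 0.000451; -4.00 in WT). Dmp1, a matrix protein of osteocytes, was detected on neither S1Pcko cartilage array and was at least 2.14-fold higher in S1Pcko long bone (adjusted p = 0.00179). A bound was formed from the lowest signal among detected probes of each cartilage array, or the probe's own signal where higher.

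The other osteoblast genes that passed the test covered matrix, lipid and signalling proteins. Ifitm5, a membrane protein of mineralizing osteoblasts, had a difference of -1.88 in S1Pcko and -4.20 in WT, and the difference between genotypes passed the test (2.32, adjusted p = 0.0350). The call of that difference was lost in 8 of 10 fits with 1 array left out (up to 0.187), and held without S1Pcko long bone replicate 1 or WT long bone replicate 3. Omd, the small proteoglycan osteomodulin, had -2.13, and Sgms2, a sphingomyelin synthase of bone, -1.91. Smpd3, a sphingomyelinase needed for mineralization, had 9.46 and 9.81 in S1Pcko cartilage, against 11.34, 11.13 and 11.15 in S1Pcko long bone (-1.58, adjusted p = 0.00743), while in WT it had 11.13 and 11.24 in cartilage and between 10.53 and 11.44 in long bone (0.19). The WT tissues overlapped and the S1Pcko tissues did not, but the difference between them did not pass (-1.77, adjusted p = 0.0639). The other Smpd3 probe had -0.83 in S1Pcko and did not pass. Bmp3 (-1.40), Col1a2 of type I collagen (-1.34) and Tnfsf11, the RANKL that drives osteoclast formation (-1.15), were also higher in S1Pcko long bone. Col1a1, the other chain of type I collagen, did not pass (-0.23, adjusted p = 0.656), nor did Alpl, alkaline phosphatase (-1.10, adjusted p = 0.0779), and Mepe, a matrix protein of osteocytes (-1.52, adjusted p = 0.186).

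Ibsp, Phex, Sp7, Sgms2 and Dmp1 kept their call in all 10 fits that left out 1 array each, with adjusted p values of at most 0.0342. Without S1Pcko cartilage replicate 1 or replicate 2, which leaves 1 cartilage array, the calls of Bglap, Ifitm5, Bmp3, Col1a2 and Tnfsf11 were lost, with adjusted p values up to 0.228, 0.0729, 0.323, 0.160 and 0.192 over the 10 fits. Omd was lost without cartilage replicate 2 (-1.68) and Smpd3 without cartilage replicate 1 (-1.40). Bmp3 was also lost without S1Pcko long bone replicate 2, WT cartilage replicate 1 or 2, or WT long bone replicate 1, and without long bone replicate 1 Tnfsf11 fell under 2-fold (-0.99).

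**Figure D3:**
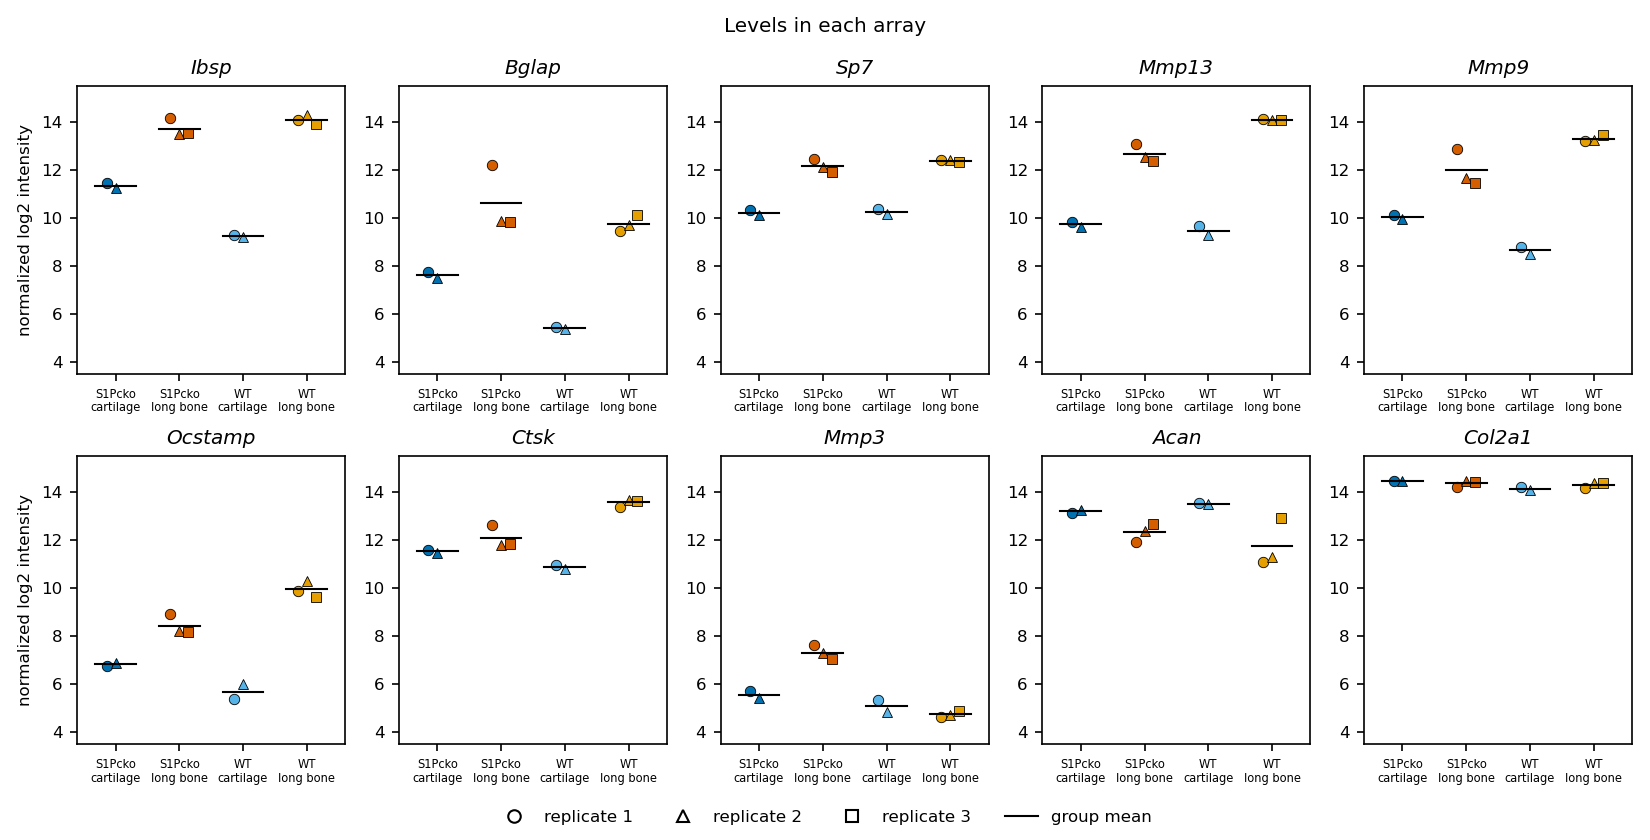
Normalized log2 intensity (y axis) of 10 genes in each array of S1Pcko cartilage, S1Pcko long bone, WT cartilage and WT long bone (x axis), with symbols for replicates and lines for group means. Ibsp, Sp7, Mmp13, Mmp9 and Ocstamp lie higher in long bone in both genotypes, Mmp3 lies higher in S1Pcko long bone at 7.05 to 7.64, and Col2a1 lies between 14.11 and 14.50 on all 10 arrays.

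Mmp13, the collagenase of hypertrophic chondrocytes and osteoblasts, was the chondrocyte gene with the largest difference among those called. It had 9.84 and 9.64 in S1Pcko cartilage, against 13.09, 12.54 and 12.39 in S1Pcko long bone, a difference of -2.94 (standard error 0.21, adjusted p = 3.55e-05), or 7.66-fold, with -3.38 on its other probe. In WT it was -4.63, with 9.65 and 9.28 in cartilage and 14.13, 14.06 and 14.10 in long bone. Here the gap between the genotypes lay in long bone, where the S1Pcko arrays were lower, and not in cartilage. The difference between genotypes was 1.69 (adjusted p = 0.0482), which was lost in 8 of 10 fits with 1 array left out (adjusted p up to 0.199) and held without S1Pcko long bone replicate 1 or WT long bone replicate 3. Of 13 genes of prehypertrophic and hypertrophic chondrocytes 11 were tested, and 3 were higher in S1Pcko long bone, none was higher in cartilage and 8 did not pass, with a median of -0.62 (2 higher in long bone in WT, median -0.28).

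The other calls of that list were Panx3, a channel protein of hypertrophic chondrocytes and osteoblasts (-1.09, adjusted p = 0.00746), and Adamts18, a secreted metalloprotease (-1.38, adjusted p = 0.0211). Panx3 was lost without S1Pcko cartilage replicate 2 (-0.96) and without long bone replicate 1 (-0.99), and Adamts18 without either cartilage array (adjusted p up to 0.170). In all, 3 of the 5 Adamts18 probes passed and the others had -0.35 and -0.46. Col10a1, the collagen that defines hypertrophic cartilage, had 9.57 and 9.61 in S1Pcko cartilage, against 11.68, 11.20 and 11.36 in S1Pcko long bone, and 10.71 and 10.90 in WT cartilage, against 10.57, 10.63 and 12.85 in WT long bone. The S1Pcko tissues did not overlap, but 1 WT long bone array stood apart from the others and the S1Pcko difference of -1.83 did not pass (standard error 0.53, adjusted p = 0.125). Ihh, the hedgehog ligand of prehypertrophic cells, had 7.10 and 7.56 in S1Pcko cartilage, against 7.68, 7.95 and 8.21 in long bone, and did not pass (-0.62, adjusted p = 0.461). None of the 11 tested members of hedgehog and PTHrP signalling was called (median -0.03).

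Promoters of 4 genes are given. Mmp13, Bglap and Ibsp carried the largest differences among the tested genes of the osteoblast and hypertrophic chondrocyte lists, and Mmp3 differed in S1Pcko alone by its call. Sparc, the bone matrix protein osteonectin, was outside these lists and had a larger difference. They are the RefSeq windows of GRCm38.p6, from 250 bases before to 50 bases after the start site, on the strand of the gene. Capitals mark ACCACA, a core of RUNX binding sites, and TGACTCA, the AP-1 element, searched on both strands (TGTGGT and TGAGTCA), which do not overlap here. The windows are chr9:7272264-7272563 on the plus strand for Mmp13, chr3:88384417-88384716 on the minus strand for Bglap, chr5:104299037-104299336 on the plus strand for Ibsp and chr9:7445572-7445871 on the plus strand for Mmp3.
Mmp13: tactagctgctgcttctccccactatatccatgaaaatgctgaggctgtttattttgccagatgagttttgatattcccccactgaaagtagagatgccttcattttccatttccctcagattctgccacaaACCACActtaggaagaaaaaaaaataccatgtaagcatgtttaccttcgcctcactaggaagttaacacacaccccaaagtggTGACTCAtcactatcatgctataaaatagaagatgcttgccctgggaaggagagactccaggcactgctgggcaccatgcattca
Bglap: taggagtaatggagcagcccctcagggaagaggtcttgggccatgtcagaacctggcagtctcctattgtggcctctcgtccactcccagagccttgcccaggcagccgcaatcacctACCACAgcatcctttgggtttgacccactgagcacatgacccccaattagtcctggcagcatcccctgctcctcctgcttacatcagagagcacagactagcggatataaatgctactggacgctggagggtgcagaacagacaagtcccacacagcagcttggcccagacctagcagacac
Ibsp: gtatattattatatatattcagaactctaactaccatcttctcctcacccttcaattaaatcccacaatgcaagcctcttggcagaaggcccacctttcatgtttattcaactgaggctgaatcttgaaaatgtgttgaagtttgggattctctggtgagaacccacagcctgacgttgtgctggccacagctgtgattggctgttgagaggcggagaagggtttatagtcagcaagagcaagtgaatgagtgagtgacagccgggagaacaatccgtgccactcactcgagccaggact
Mmp3: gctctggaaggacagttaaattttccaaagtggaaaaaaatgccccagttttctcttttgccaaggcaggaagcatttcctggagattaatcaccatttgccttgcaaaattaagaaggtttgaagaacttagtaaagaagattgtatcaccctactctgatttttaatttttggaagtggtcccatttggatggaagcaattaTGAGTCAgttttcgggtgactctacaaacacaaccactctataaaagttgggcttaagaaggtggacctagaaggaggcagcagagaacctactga

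In the Mmp13 window ACCACA began 118 bases and TGACTCA 35 bases before the start site. The Bglap window held ACCACA at 132 bases before the start, the Mmp3 window held TGAGTCA at 46 bases, and the Ibsp window held neither motif. Of all 32851 promoter windows 16.8% held the RUNX letters and 5.20% the AP-1 letters, and of the 12346 windows of tested genes 12.7% and 4.03% did. Among 114 windows of 84 genes called higher in S1Pcko long bone, 19 (16.7%) held the RUNX letters and 18 (15.8%) the AP-1 letters. Several windows belong to 1 gene, no test was made of these shares, and a match in letters is not a measured binding site.

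Osteoclast genes had fewer calls between the S1Pcko tissues than between the WT tissues, 4 against 12 of 16. Of 19 listed genes 16 were tested, and 4 were higher in S1Pcko long bone, none was higher in cartilage and 12 did not pass, with a median of -0.56. In WT 12 of the 16 were called higher in long bone, with a median of -1.84, and the difference between the genotypes was called for 4 members, each with the smaller difference in S1Pcko, and not for the other 12. With amplifications averaged no gene was called for the difference between the genotypes. The 16 genes averaged 7.64 and 7.64 in S1Pcko cartilage, against 8.68, 8.20 and 8.14 in S1Pcko long bone, and 7.27 and 7.29 in WT cartilage, against 9.30, 9.31 and 9.27 in WT long bone. Without S1Pcko long bone replicate 1 there were still 4 calls in S1Pcko, with a median of -0.41, but without either S1Pcko cartilage array there was none.

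Mmp9, the gelatinase of osteoclasts, had 10.12 and 9.94 in S1Pcko cartilage, against 12.87, 11.67 and 11.47 in S1Pcko long bone, a difference of -1.97 (standard error 0.33, adjusted p = 0.0145). In WT it had 8.78 and 8.51 in cartilage and 13.22, 13.25 and 13.44 in long bone, a difference of -4.66. The S1Pcko arrays were thus higher in cartilage and lower in long bone than their WT counterparts, and the difference between the genotypes was 2.68 (standard error 0.46, adjusted p = 0.0490). Ocstamp, a membrane protein needed for osteoclast fusion, had 6.78 and 6.90 in S1Pcko cartilage, against 8.94, 8.21 and 8.19 in S1Pcko long bone (-1.60, adjusted p = 0.0169). The WT difference was -4.26 and the difference between the genotypes 2.65 (adjusted p = 0.0243), and the other Ocstamp probe had -0.30 in S1Pcko and did not pass. Slc37a2, a sugar phosphate transporter of osteoclasts, had -1.67 (adjusted p = 0.0175; -3.95 in WT). Car2, the carbonic anhydrase that supplies acid for resorption, was detected on neither S1Pcko cartilage array and was at least 2.26-fold higher in S1Pcko long bone (adjusted p = 0.0216).

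Ctsk, the collagen-degrading cathepsin K, had 11.62 and 11.47 in S1Pcko cartilage, against 12.66, 11.83 and 11.87 in S1Pcko long bone. The tissues did not overlap, yet replicates 2 and 3 lay close to the cartilage arrays and the difference of -0.57 did not pass (standard error 0.23, adjusted p = 0.252). In WT it was -2.70, and the difference between the genotypes passed the test (2.13, adjusted p = 0.0311), as did that of Dcstamp, the partner of Ocstamp in fusion (1.51, adjusted p = 0.0385). Acp5, the acid phosphatase that stains osteoclasts (-0.54, adjusted p = 0.272), Tnfrsf11a, the RANKL receptor (0.01), and Nfatc1, the transcription factor of osteoclast formation (0.27), did not pass in S1Pcko. Each of Mmp9, Ocstamp, Slc37a2 and Car2 lost its S1Pcko call without cartilage replicate 1 or replicate 2, with adjusted p values up to 0.175, 0.158, 0.192 and 0.191. The calls of the difference between genotypes were lost in 8 of 10 fits for Mmp9, Ctsk and Dcstamp (adjusted p up to 0.199, 0.176 and 0.192) and in 7 of 10 for Ocstamp (up to 0.149). For Mmp9, Ctsk and Dcstamp they held without S1Pcko long bone replicate 1 or WT long bone replicate 3.

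Genes of cartilage matrix, which separated the WT tissues, did not separate those of S1Pcko embryos by the test. Of 24 listed genes 20 were tested, none was called in S1Pcko and their median difference was 0.24, whereas in WT 10 were called higher in cartilage with a median of 1.16. Their mean was 11.32 and 11.32 in S1Pcko cartilage, against 10.68, 11.23 and 11.30 in S1Pcko long bone, and 11.95 and 12.04 in WT cartilage, against 10.46, 10.58 and 11.55 in WT long bone. The S1Pcko arrays other than long bone replicate 1 were nearly level. Acan, the proteoglycan aggrecan, had 13.15 and 13.29 in S1Pcko cartilage, against 11.93, 12.41 and 12.67 in S1Pcko long bone (0.88, adjusted p = 0.338), and a WT difference of 1.74. Col2a1, the main collagen of cartilage, had 14.47 and 14.50 in S1Pcko cartilage, against 14.24, 14.50 and 14.42 in S1Pcko long bone (0.10, adjusted p = 0.774). Sox5, a transcription factor of chondrocytes, had 0.80 (adjusted p = 0.163) and Col11a2 0.71 (adjusted p = 0.243). No member of this list passed the test of the difference between genotypes, the lowest adjusted p being 0.215 for Hapln1, the link protein, so that a smaller tissue difference in S1Pcko is not shown for any of its genes.

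**Figure D4:**
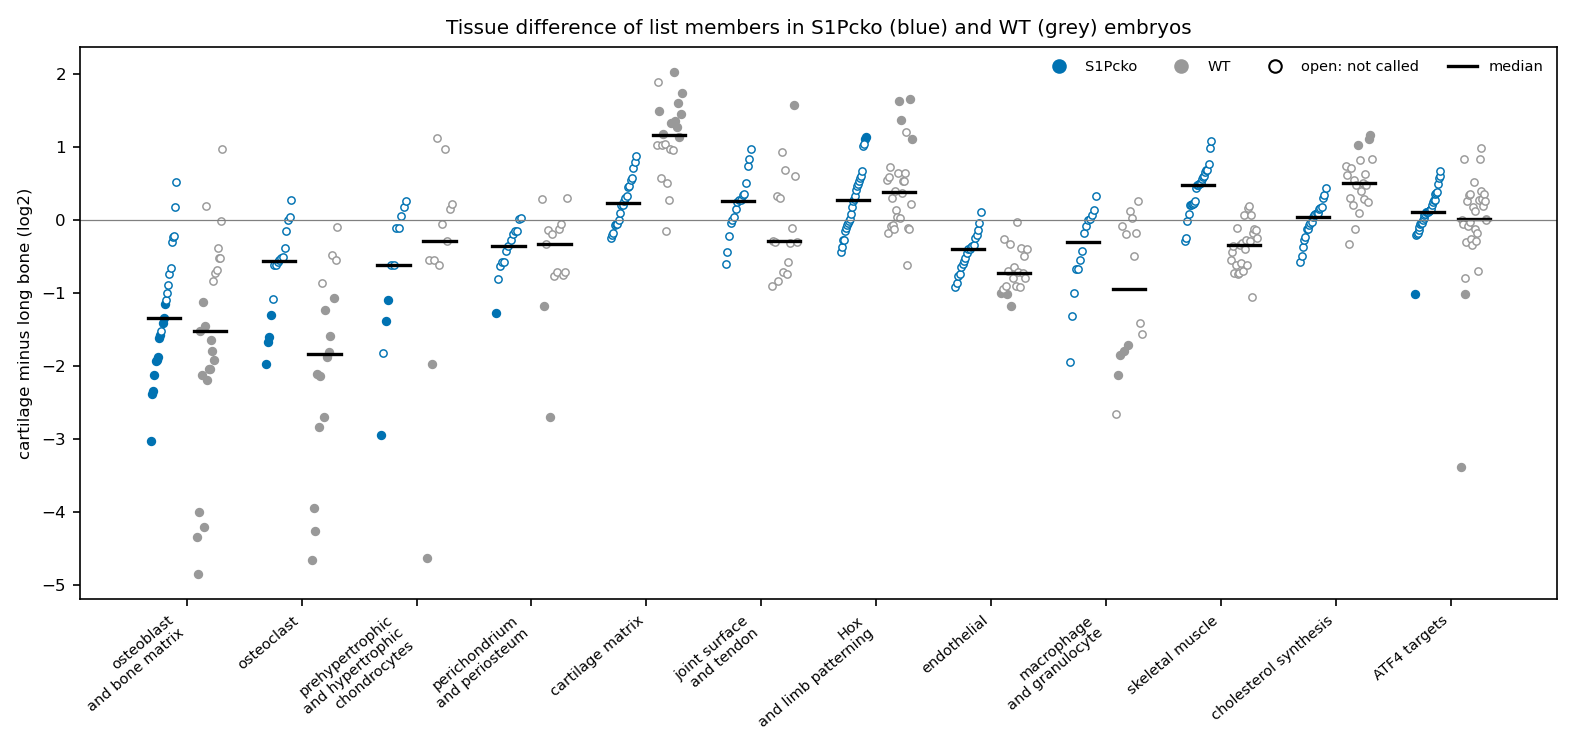
Difference between cartilage and long bone (log2, y axis) of the tested members of 12 lists (x axis), in S1Pcko embryos (blue, left) and WT embryos (grey, right), with filled points for called genes and bars for medians. Osteoblast medians are -1.34 in S1Pcko and -1.52 in WT, osteoclast medians -0.56 and -1.84, and cartilage matrix medians 0.24 and 1.16.

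Among matrix proteases Mmp3 was called in S1Pcko and not in WT, with a called difference between the genotypes. Mmp3, or stromelysin-1, which degrades proteoglycans and activates other proteases, had 5.73 and 5.42 in S1Pcko cartilage, against 7.64, 7.31 and 7.05 in S1Pcko long bone, a difference of -1.76 (standard error 0.21, adjusted p = 0.00179). The other Mmp3 probe gave -1.31 (adjusted p = 0.00142). In WT it had 5.34 and 4.86 in cartilage and 4.66, 4.72 and 4.90 in long bone, and 1 WT cartilage array was the only WT array with a detected signal. The S1Pcko long bone arrays were thus the highest of all 10, and the difference between the genotypes was -2.09 (adjusted p = 0.0203), lost in 6 of 10 fits with 1 array left out (adjusted p up to 0.149), among them those without either S1Pcko cartilage array. Of 28 listed proteases and inhibitors 23 were tested, and Mmp13, Mmp9 and Mmp3 were the 3 called, all higher in long bone (median -0.15; 3 called higher in long bone in WT). Lum, the small proteoglycan lumican of perichondrium and other connective tissue, averaged 9.85 ± 0.37 in S1Pcko cartilage (SD, n = 2) and 11.12 ± 0.20 in S1Pcko long bone (SD, n = 3), with -1.27 between them (adjusted p = 0.00961 by limma), but 0.29 in WT. The difference between the genotypes did not pass (-1.56, adjusted p = 0.0523), and the S1Pcko call was lost without cartilage replicate 2 (-1.01). Lum was the 1 call among 13 tested genes of perichondrium and periosteum (median -0.36).

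Patterning genes gave the only list calls towards cartilage. Hoxd9, a transcription factor of the limb, had 8.24 and 8.63 in S1Pcko cartilage, against 6.94, 7.48 and 7.47 in S1Pcko long bone (1.14, standard error 0.21, adjusted p = 0.0223), and 1.11 in WT. Tbx5, which marks the forelimb, had 9.79 and 10.10 in S1Pcko cartilage, against 8.34, 9.08 and 9.10 in S1Pcko long bone (1.11, adjusted p = 0.0329), and 0.22 in WT. For Tbx5 another of its 3 probes had 0.85 and the remaining one -0.03. Both fell under 2-fold without S1Pcko long bone replicate 1 (0.96 and 0.86) and lost their call without either cartilage array, and Tbx5 also without WT cartilage replicate 1 or 2 or WT long bone replicate 1 (adjusted p up to 0.274 for Hoxd9 and 0.321 for Tbx5). Of 32 listed Hox and limb patterning genes 26 were tested, these 2 were called and 24 did not pass, with a median of 0.27 (4 higher in cartilage in WT, median 0.38).

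Lists of other cell types had few or no calls in S1Pcko. None of 19 endothelial genes (median -0.40), 14 macrophage and granulocyte genes (-0.30), 9 erythroid genes (0.32), 7 epidermis genes (-0.51), 7 nerve genes (-0.02), 3 platelet genes (0.13) or 16 joint and tendon genes (0.26) was called. In WT the same lists held 3, 4, 1, 1, 2, 1 and 1 calls, with medians of -0.72, -0.95, -1.15, 0.00, 0.36, 0.59 and -0.29. In the same order 20, 26, 25, 22, 13, 9 and 20 genes were listed. The filter used detection on S1Pcko arrays, so members detected only in WT were not tested. Among 4 adipocyte genes Car3, a carbonic anhydrase of fat and muscle, was called (-1.76, adjusted p = 0.0471), while its other probe had -2.05 and did not pass. On the called probe Car3 had 10.90 in long bone replicate 1, against 9.22 and 9.36 in replicates 2 and 3 and 8.14 and 7.98 in cartilage. Its call was lost in 7 of 10 fits with 1 array left out (adjusted p up to 0.343) and held without replicate 1, at -1.23. None of 25 skeletal muscle genes was called either (median 0.48), but without S1Pcko long bone replicate 1 there were 10 calls, all higher in cartilage, and a median of 1.00. Tnnc1, a troponin of slow muscle, had 12.49 and 12.69 in S1Pcko cartilage, against 12.22 in replicate 1 and 11.17 and 11.12 in replicates 2 and 3. In WT the 25 genes averaged 10.84 and 10.83 in cartilage, against 11.22, 11.26 and 11.11 in long bone (replicates 1, 2 and 3). S1Pcko long bone replicates 2 and 3, which may come from 1 extract, were thus the lowest arrays, at 9.82 and 9.87. S1Pcko long bone replicate 1 was above both S1Pcko cartilage arrays. The part of muscle genes in the 23 genes higher in cartilage was not tested.

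Genes of metabolism and stress differed little between the S1Pcko tissues. The 21 tested genes of cholesterol synthesis had no call and a median of 0.04, against 3 genes higher in cartilage and a median of 0.51 in WT. Their mean was 8.84 and 8.89 in S1Pcko cartilage, against 8.93, 8.85 and 8.86 in S1Pcko long bone, and 10.11 and 10.15 in WT cartilage, against 9.53, 9.64 and 9.68 in WT long bone. S1Pcko arrays were thus level across tissues and below all WT arrays. The 31 tested ATF4 targets averaged 9.92 and 9.89 in S1Pcko cartilage, against 9.59, 9.88 and 9.89 in S1Pcko long bone (median difference 0.11), above all 5 WT arrays (8.14 to 8.20), and the 1 call was Atf4 itself. Atf4, a transcription factor of amino acid supply and osteoblast maturation, had 9.44 and 9.29 in S1Pcko cartilage, against 10.05, 10.54 and 10.54 in S1Pcko long bone (-1.01, adjusted p = 0.0384), and -3.39 in WT. Its other probe had -0.06, and the S1Pcko call was lost in 7 of 10 fits with 1 array left out (adjusted p up to 0.325). Neither the 20 glycolysis genes (median 0.36), the 21 cell cycle genes (0.07) nor the 32 BMP, Wnt and FGF factors (0.01) held a call in S1Pcko.

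Several of the largest differences came from genes outside these lists, and their values followed the array groups in an all-or-none way. Gdi2, a regulator of Rab GTPases, had 13.35 and 13.19 in S1Pcko cartilage, against 8.94, 9.24 and 8.85 in S1Pcko long bone, a difference of 4.26 (standard error 0.16, adjusted p = 3.84e-07), while WT long bone had 12.51, 12.53 and 12.50. Its other probes had 0.17 and -0.95 and did not pass. Sparc, the matrix glycoprotein osteonectin, had 5.39 and 5.52 in S1Pcko cartilage, against 9.59, 9.60 and 9.31 in S1Pcko long bone (-4.05, adjusted p = 1e-05), and all 5 WT arrays lay between 8.98 and 9.97. S1Pcko cartilage was thus the 1 group of 4 in which this Sparc probe, the only one tested, was low. Cops8, a subunit of the COP9 signalosome, had 4.75 and 5.11 in S1Pcko cartilage, against 9.32, 9.48 and 9.56 in S1Pcko long bone (-4.52, adjusted p = 3.84e-07), and -3.68 in WT.

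Tomm22, a receptor of mitochondrial protein import, had -3.98 in S1Pcko and -3.81 in WT on its brightest probe, and -0.07 on the other. Pisd-ps3, a pseudogene, had -2.83 in S1Pcko, with 0.40 on its other probe, and -0.50 in WT. Rmst, a long non-coding RNA, was detected on neither S1Pcko cartilage array and was at least 5.41-fold higher in S1Pcko long bone (adjusted p = 9.57e-06), where it had 7.33, 7.73 and 7.44, and was between 4.61 and 4.73 on the 5 WT arrays. Pdgfd, a platelet-derived growth factor, was at least 3.05-fold higher in S1Pcko long bone (adjusted p = 0.000184) and, with the opposite direction, at least 2.96-fold higher in WT cartilage, and its other probe had -0.33 in S1Pcko and -0.56 in WT. It was the 1 gene called in opposite directions in the 2 genotypes. Of the 135 called genes 44 had several tested probes, and these were called alike in 8, while in 33 none of the other probes was called and in 8 an other probe had the opposite sign. The remaining 91 genes had 1 tested probe, so this comparison could not be made for them.

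**Figure D5:**
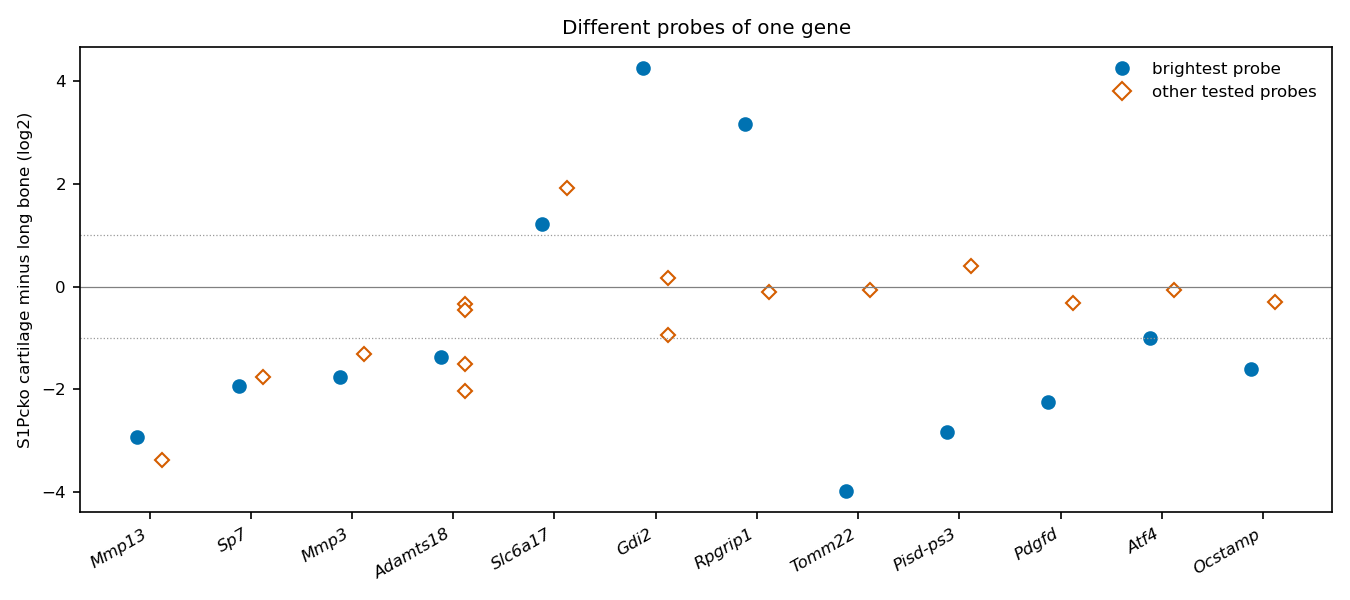
Difference between S1Pcko cartilage and S1Pcko long bone (log2, y axis) of the brightest probe (blue) and the other tested probes (open) of 12 genes (x axis), with dotted lines at 2-fold. The probes of Mmp13 (-2.94 and -3.38), Sp7 (-1.93 and -1.76) and Mmp3 (-1.76 and -1.31) lie together, whereas those of Gdi2 (4.26, 0.17 and -0.95) and Tomm22 (-3.98 and -0.07) lie apart.

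Among the rest of the 15 genes with the largest differences towards long bone, Cptp, a ceramide-1-phosphate transfer protein, was detected on neither S1Pcko cartilage array and was at least 4.24-fold higher in S1Pcko long bone (adjusted p = 0.000318). Ffar2, a receptor for short fatty acids, had a difference of -2.28, Rapgefl1, a relative of Rap exchange factors, -2.27, H2az1, the histone variant H2A.Z, -2.25, and 9130024F11Rik, a transcript without a known role, -2.83. H2az1 averaged 8.76 ± 0.34 in S1Pcko cartilage (SD, n = 2) and 11.01 ± 0.10 in S1Pcko long bone (SD, n = 3), and its call was lost in 8 of 10 fits with 1 array left out (adjusted p up to 0.380; -2.25 and 0.0745 without S1Pcko long bone replicate 1), and held without WT long bone replicate 1 or 3. Below these 15, and chosen after their values were seen, Vdr, the vitamin D receptor (-1.68), Ank, a pyrophosphate transporter that limits mineralization (-1.28), and Enpp6, a choline phosphodiesterase (-1.93), were higher in S1Pcko long bone. For Enpp6 the difference was smaller than in WT (-4.41) by 2.48 (adjusted p = 0.0375).

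The 15 largest differences towards S1Pcko cartilage ranged, after the first 2, between 1.56 and 1.15 on the log2 scale. Next to Gdi2, Rpgrip1, a protein of photoreceptor cilia, had 8.84 and 9.15 in S1Pcko cartilage, against 5.89, 5.64 and 5.95 in S1Pcko long bone (3.17, adjusted p = 0.0149), with -0.11 on its other probe. Agpat5, an acyltransferase of phospholipid synthesis (1.56), Sim2, a transcription factor (1.51), Amtn, the enamel protein amelotin (1.5), Pnck, a calmodulin-dependent kinase (1.38), Hddc3 (1.33), and Slc6a17, a transporter of neutral amino acids (1.23, with 1.93 on its other probe), followed. Trappc5, a subunit of a vesicle tethering complex, had 1.22, C1qtnf2, a secreted relative of C1q, 1.22, Lrp1b, a receptor of the LDL receptor family, 1.19, Mymk, the myoblast fusion protein myomaker, 1.18, and Dtd2, a tRNA proofreading enzyme, 1.17. The other Lrp1b probe had -0.02 and did not pass. Hal, a histidine-degrading enzyme, and Elfn2, a neuronal membrane protein, were detected on no S1Pcko long bone array and were at least 1.71-fold and at least 1.5-fold higher in S1Pcko cartilage. Of these 15 genes Gdi2 kept its call in all 10 fits with 1 array left out, and the others lost it in at least 1. Without S1Pcko long bone replicate 1 the calls of Sim2 (1.19, adjusted p = 0.0641), Amtn (1.34, adjusted p = 0.0532), Hddc3 (1.41, adjusted p = 0.0558) and Mymk (1.25, adjusted p = 0.0563) were lost. Mymk had 6.48 and 6.90 in S1Pcko cartilage, against 5.64, 5.44 and 5.46 in S1Pcko long bone. Unlike the mean of the muscle list, it was below both cartilage arrays in long bone replicate 1 too.

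The difference between the tissue differences, S1Pcko minus WT, was called for 35 genes (0.292% of the genes tested), 18 of them more positive in S1Pcko (0.150%) and 17 more negative (0.142%). Of the 494 genes called in WT and not in S1Pcko, 13 passed this test, of the 56 called in S1Pcko and not in WT, 8 did, and of the 78 called alike in both, 9 did. For the other genes a call in 1 genotype and not in the other does not show that the tissue difference changed. The 5 most positive values were those of Gdi2 (3.38), Mmp9 (2.68), Ocstamp (2.65), Enpp6 (2.48) and Ibsp (2.46), of which the last 4 are higher in long bone in both genotypes. The 5 most negative were Pdgfd (-4.43), Lor (-4.18), Sparc (-3.61), S100b (-2.67) and Rmst (-2.59). Lor, loricrin of the cornified epidermis, had 6.55 and 6.12 in S1Pcko cartilage, against 7.68, 7.26 and 7.05 in S1Pcko long bone, and 9.79 and 9.73 in WT cartilage, against 6.53, 6.80 and 6.38 in WT long bone. S100b, a calcium-binding protein of chondrocytes and glia, had 5.82 and 5.88 in S1Pcko cartilage, against 5.14, 5.92 and 5.69 in S1Pcko long bone, and 7.94 and 7.63 in WT cartilage. In both, WT cartilage was the group that stood above the other 3. The count of 35 became 243 without S1Pcko long bone replicate 1 and 236 without WT long bone replicate 3, and was between 8 and 13 without any other single array. S1Pcko replicate 1 and WT replicate 3 each differed in Xist from the rest of their long bone group. The 2 arrays left in that group differed by 2-fold at 56 probes in S1Pcko and at 146 in WT. They may be amplifications of 1 extract. The larger counts, and calls that held only in these 2 fits, may therefore rest on too small a spread.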

How the data were processed

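cRNA was made from E16.5 tissue RNA with a MessageAmp kit (Ambion), biotinylated and hybridized to 12 arrays. The authors deposited bead-summary intensity values that had not been normalized, and a detection p-value beside each. A second set, deposited by the authors as processed intensity values, served as an alternative. Scanner and summary software are not given in the sources used here.

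Signals were background-corrected with normexp (offset 16) and quantile normalized over 12 arrays in limma 3.58.1 (R 4.3.3), on the log2 scale. Probes with a detection p under 0.05 on 2 or more of the 5 S1Pcko cartilage and long bone arrays were kept, 22273 in all, of which 17499 have 1 symbol, for 11970 genes. A gene is represented by its brightest kept probe. The limma model held 10 arrays in 4 groups, which left 6 residual degrees of freedom beside a prior of 5.02. p values were adjusted by Benjamini-Hochberg over all kept probes, and a call needs an adjusted p under 0.05 and 2-fold. The methods name a 2-way ANOVA at an FDR of 5%. On simulated data with noise drawn independently for each array, the fit called the largest changes that were put into bright probes. Calls of the smaller changes were not required, and arrays that share an extract were not simulated.

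Genes were named by rule: the 15 largest differences in each direction, the 5 largest in each direction for the difference between genotypes, up to 6 members of each list by size, and Mbtps1. Other list members are named where a sentence turns on them. Members and lists were chosen with earlier results of these data known. Alternatives covered background, scaling, filter, model, amplification round and each array in turn. A paired number would be the amplification round, and deviations of arrays of different groups correlated with a median of 0.08 within a round and -0.09 between rounds.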

Additional observations from a re-analysis of the deposited data

Results flagged for a closer look

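The tissue difference of 18 of the genes named here differed between the genotypes by the limma test of that difference (S1Pcko minus WT, log2). It was more positive in S1Pcko for Gdi2 (3.38), Mmp9 (2.68), Ocstamp (2.65), Enpp6 (2.48), Ibsp (2.46), Atf4 (2.38), Ifitm5 (2.32), Ctsk (2.13), Dkk1 (1.74), Mmp13 (1.69) and Dcstamp (1.51). It was more negative for Pdgfd (-4.43), Lor (-4.18), Sparc (-3.61), S100b (-2.67), Rmst (-2.59), Pisd-ps3 (-2.33) and Mmp3 (-2.09). Dkk1, a secreted inhibitor of Wnt signalling, had a difference of -0.79 in S1Pcko and -2.53 in WT (adjusted p of the difference between them 0.0464). The calls of Gdi2, Pdgfd, Lor, Sparc, Rmst and Pisd-ps3 held in all 10 fits with 1 array left out, with adjusted p values of at most 0.041, and those of the other 12 were lost in 3 to 8 of them. Of those 6 genes 3 had other tested probes, none of which passed that test: they had 0.05 and -1.24 for Gdi2, 0.23 for Pdgfd and 0.17 for Pisd-ps3. No group of arrays here had 4 members, so single arrays were not tested as outliers within a group.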

How the results depend on the processing

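The counts of called genes depended on the processing. Of the values of single genes under all alternatives, 1465 kept direction and call, 765 kept the direction and lost the call, and none was reversed. Apart from Mbtps1, which was not called, these genes were chosen by their calls. The arrays of those called in S1Pcko did not overlap, so leaving out arrays could not reverse their S1Pcko difference. The lack of reversals is therefore no measure of how firm their direction is. The main counts were 23 higher in S1Pcko cartilage, 112 higher in S1Pcko long bone, 573 called in WT, 78 called alike in both genotypes and 35 for the difference between genotypes. In the same order they were 6, 60, 285 and 43 without background correction and 7, 73, 367 and 50 with an offset of 50 (34 and 41 for the difference between genotypes). Without a filter on detection they were 7 and 68, with 48 alike in both, and with detection on all 5 S1Pcko arrays 14 were higher in cartilage. An unmoderated 2-way model gave 3, 27, 332, 18 and 5, and no 2-fold threshold gave 52, 182, 1379 and 144. The authors' processed values gave 23 genes for the difference between genotypes, and a filter over 10 arrays, chosen after seeing the data, gave 54. Leaving out 1 array each gave 1 to 72, 29 to 122, 281 to 716, 19 to 87 and 8 to 243.

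Where amplifications are not independent, few calls remained. The first round alone gave 1, 2, 5, 1 and 0 genes, with 604 at an unadjusted p under 0.05 for the difference between genotypes. Averaging amplifications gave 1, 14, 150, 9 and 0 (899 unadjusted) with long bone replicate 2 joined to replicate 1, and 1, 2, 10, 1 and 0 (538 unadjusted) with it joined to replicate 3. These fits hold fewer arrays. By its Xist and Eif2s3y values, S1Pcko long bone replicate 2 was like replicate 3 and unlike replicate 1. With the amplification round as a replicate block, the counts were 20, 109, 575, 76 and 37. That block does not join the amplifications of 1 extract, which still count as separate arrays in it. All 135 called genes had the same sign in both rounds, which was fixed in advance because their S1Pcko arrays did not overlap. On these arrays, which also made the calls, 126 reached 2-fold in round 1 and 111 in round 2. Precision is limited by the number of arrays, and for the 14 called genes not detected in S1Pcko cartilage only a lower bound of the fold is known.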
